A study of Mus musculus with 28 samples.

Results

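The genes described here encode the core proteins of the spliceosome, the machine that removes introns from pre-mRNA. They were chosen by symbol, as transcript clusters annotated with a single gene whose name begins with Snrp, Snrnp, Prpf, U2af, Sf3a, Sf3b or Lsm and a digit. A transcript cluster is the array's unit for one transcribed region, and the brightest over the 28 arrays stood for each gene. The rule found 52 members among 30612 genes with a transcript cluster of their own, namely 51 genes and the pseudogene Snrp1c-ps2. The arrays came from cortical tissue of mice aged 12 to 15 weeks, 7 per group. The groups were Rbm5 knockout (KO) after controlled cortical impact (CCI), KO after sham, wild type (WT) after CCI and WT after sham, with 3 males in KO CCI, 4 in KO sham, 3 in WT CCI and 3 in WT sham. CCI mice received a craniotomy over the left parietal cortex and an impact at 6 m/s to a depth of 1.2 mm, and sham mice received anaesthesia with no craniotomy, so craniotomy and impact cannot be told apart. Tissue was taken 48 h later, from mice perfused with cold buffered saline, and total RNA was labelled for the MTA 1.0 array. The strain background and the design of the Rbm5 deletion are not given in the sources used here.

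Each intron is recognised by small nuclear ribonucleoproteins (snRNPs), in which a short RNA carries a ring of Sm or Lsm proteins and particle-specific partners. The U1 snRNP pairs with the 5′ splice site, the U2AF dimer reads the 3′ splice site, and the U2 snRNP with its SF3A and SF3B complexes holds the branch point. The U4/U6.U5 tri-snRNP then joins and is remodelled into the active enzyme. RBM5 is a splicing regulator that contacts this core directly. Its OCRE domain binds the tails of the Sm proteins SmN, SmB and SmB′, and its G-patch stimulates the helicase DHX15.

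Rbm5 signal was checked first. It spanned 9.71 to 9.80 in KO CCI, 9.66 to 9.84 in KO sham, 10.59 to 10.79 in WT CCI and 10.70 to 10.82 in WT sham on the log2 scale, so no KO array reached a WT array. The rule's label held for most members but was wider than the spliceosome in places: Lsm1, Lsm14a and Lsm14b act on cytoplasmic mRNA, and Lsm10 and Lsm11 belong to the U7 snRNP that trims histone mRNA. Of the 52 members, 48 lay above the median of their array on all 28 arrays. The exceptions were Lsm2 on 19 arrays, Lsm5 on 21, Sf3b5 on 5 and the pseudogene on 0. Snrpn, Snrpd1, Snrpd2, Snrpa and U2af1l4 share their transcript clusters with other genes and have no values here. A second transcript cluster listed with Snrpg carries a chromosome 17 identifier, while the gene lies on chromosome 6. It was not used as the member, and Snrpg values are uncertain to the extent that near-identical copies share probes.

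Injury shifted the members by small amounts. In WT mice 18 of 52 members were higher after CCI than after sham and 2 were lower, by the limma test with an adjusted p under 0.05 over all 65956 transcript clusters. Of all transcript clusters, 8.86% were called higher and 7.96% lower. Among the 16785 named genes brighter than the median transcript cluster, the shares were 21.1% higher and 13.8% lower. In KO mice 6 members were higher and 4 lower, against 8.43% higher and 8.27% lower of all transcript clusters, and 17.7% and 15.5% of the brighter named genes. The median log2 injury change of the members was 0.04 in KO and 0.09 in WT, against 0.01 in KO and -0.02 in WT over all transcript clusters. With each array centred on its median the members' median was -0.0018 in KO and 0.08 in WT. No member changed by more than 1.26-fold in KO or 1.24-fold in WT. In bulk tissue, fewer cells of a type and less RNA per cell cannot be told apart.

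Markers of other cell types moved with injury. All 10 microglia and macrophage markers, 8 of 8 reactive astrocyte markers and 9 of 9 measured markers of dividing cells were higher after CCI in both genotypes, and 5 of 10 neuronal markers were lower in each. The mean of the microglial list per array spanned 8.48 to 9.46 in KO CCI, 7.13 to 7.52 in KO sham, 8.53 to 9.72 in WT CCI and 7.06 to 7.24 in WT sham. Reactive astrocyte means spanned 10.29 to 10.97 in KO CCI, 7.17 to 8.21 in KO sham, 10.17 to 10.99 in WT CCI and 7.13 to 7.44 in WT sham. Neuronal markers were bright on every array, also on those with high striatum signal, so they do not tell cortex from striatum. Their means spanned 13.54 to 13.77 in KO CCI, 13.87 to 13.99 in KO sham, 13.70 to 13.95 in WT CCI and 13.94 to 14.01 in WT sham. Dividing-cell means spanned 6.65 to 7.27 in KO CCI, 5.84 to 6.03 in KO sham, 6.54 to 7.38 in WT CCI and 5.80 to 5.91 in WT sham. The part of these shifts in the members' changes was not tested. Signal of neighbouring tissue was uneven too. On 10 arrays the mean of the striatum or choroid plexus markers lay over 3 median absolute deviations above the sham median: 3 of KO CCI, 2 of KO sham, 4 of WT CCI and 1 of WT sham. Striatum means spanned 6.89 to 9.68 in KO CCI, 7.07 to 8.13 in KO sham, 6.87 to 9.44 in WT CCI and 7.04 to 7.52 in WT sham, and choroid plexus means reached 7.51, 5.98, 7.65 and 7.51 in the same groups.

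**Figure D1:**
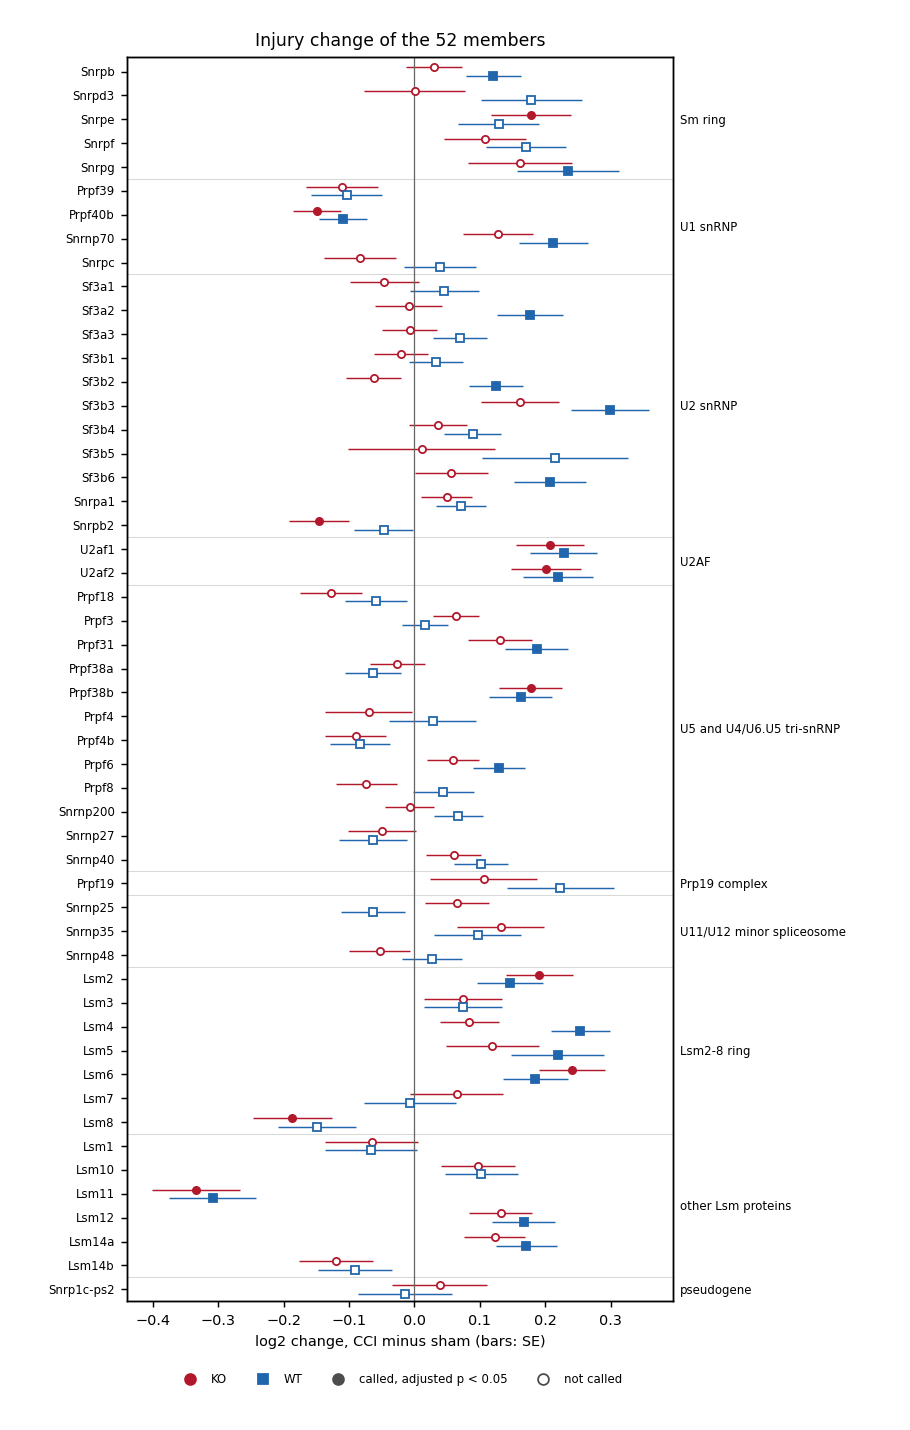
Log2 injury change (CCI minus sham) of each of the 52 members by role, with KO as red circles above WT as blue squares, bars showing the SE, and filled symbols marking an adjusted p under 0.05. In WT 18 filled squares lie right of 0 and 2 left of it, while in KO 6 filled circles lie right and 4 left.

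The Sm ring proteins coat the snRNA of every snRNP except U6. All 5 measured ring genes had injury changes above 0 in both genotypes, against 54.0% of all transcript clusters in KO and 42.5% in WT, and with arrays centred on their medians 3 of the 5 did in KO. Few passed the test. Snrpg (0.23, SE 0.08, adjusted p = 0.0385) and Snrpb (0.12, SE 0.04, adjusted p = 0.0472) were called higher in WT, and Snrpe (0.18, SE 0.06, adjusted p = 0.0462) in KO. Snrpb encodes SmB and SmB′, the Sm proteins whose tails RBM5 binds. It averaged 6.94 ± 0.06 in KO CCI, 6.91 ± 0.04 in KO sham, 7.00 ± 0.03 in WT CCI and 6.88 ± 0.11 in WT sham (SD, n = 7 each). The Snrpg call was lost when any 1 of 8 arrays was left out, the Snrpb call with any 1 of 19 and the Snrpe call with any 1 of 14.

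Both U2AF genes rose after injury in both genotypes. U2af1 encodes the subunit that contacts the AG at the intron's end, and U2af2 encodes the subunit that binds the pyrimidine tract before it. U2af1 signal had a lowest, median and highest value of 9.71, 9.76 and 9.91 in KO CCI, against 9.41, 9.58 and 9.71 in KO sham. In WT the values were 9.68, 9.84 and 9.90 after CCI, against 9.38, 9.60 and 9.65 after sham. Every injured array lay above every sham array of its genotype, in KO by less than the printed digits. The same held for 3.51% of all transcript clusters in KO and 4.44% in WT, and for 8.45% and 12.0% of the brighter named genes. U2af1 rose by 0.21 in KO (SE 0.05, limma adjusted p = 0.00477) and by 0.23 in WT (SE 0.05, adjusted p = 0.00182). U2af2 spanned 10.99 to 11.19 in KO CCI with a median of 11.08, against 10.73 to 11.05 with a median of 10.85 in KO sham. It spanned 10.85 to 11.17 in WT CCI with a median of 11.07, against 10.73 to 10.91 with a median of 10.81 in WT sham. The groups of each genotype overlapped slightly for U2af2, and both changes passed the test, at 0.20 in KO (adjusted p = 0.00875) and 0.22 in WT (adjusted p = 0.00385). Without the 10 arrays of high striatum or choroid plexus signal, the KO changes of U2af1 and U2af2 were 0.19 and 0.20 and no longer passed (adjusted p = 0.0733 and 0.0729), while the WT changes did. The KO change of U2af2 also did not pass when arrays were centred on their medians (adjusted p = 0.0683). U2af1 lies on chromosome 17 and U2af2 on chromosome 7. The U2af1 promoter is shown because this member rose after injury with no overlap of groups in both genotypes. It covers 250 bases before and 50 after the RefSeq start in GRCm38.p6, at chr17:31658715-31659014 on the minus strand, read in the direction of the gene. Capitals mark a TTCCCGC match (the E2F core) on the opposite strand, 3 GC boxes (GGGCGG in either strand) and the overlapping CCAAT matches of both strands.
U2af1: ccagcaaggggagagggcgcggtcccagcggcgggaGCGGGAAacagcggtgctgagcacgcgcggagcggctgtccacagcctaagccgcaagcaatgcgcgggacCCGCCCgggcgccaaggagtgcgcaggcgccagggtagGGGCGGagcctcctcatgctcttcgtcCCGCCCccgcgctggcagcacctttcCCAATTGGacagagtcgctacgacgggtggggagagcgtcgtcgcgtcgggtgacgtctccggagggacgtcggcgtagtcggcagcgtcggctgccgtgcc
A CTTTCC match overlaps the first base of the forward CCAAT and is left in lower case.

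**Figure D2:**
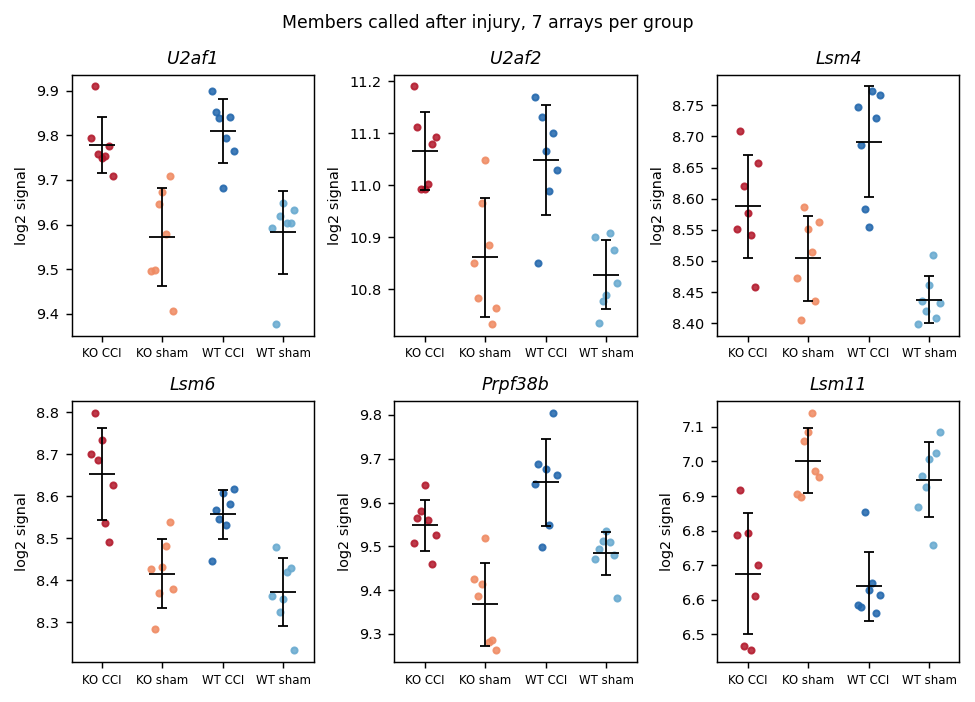
Log2 signal of 6 members on each array, for KO CCI, KO sham, WT CCI and WT sham, with black bars for the mean and SD of 7 arrays. U2af1 after CCI lies above all sham arrays of its genotype, and Lsm11 is the member that falls.

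The U2 snRNP and its SF3A and SF3B complexes bind the branch point. In WT, 4 of the 11 members were called higher and 0 lower, against 21.1% higher and 13.8% lower of the brighter named genes. In KO 0 were called higher and 1 lower, against 17.7% and 15.5%. Sf3b3, a large scaffold subunit of SF3B, rose most, by 0.30 in WT (SE 0.06, limma adjusted p = 0.000464). Its KO change was 0.16 (SE 0.06, adjusted p = 0.0626). Sf3b6, whose protein p14 touches the branch-point adenosine, rose by 0.21 in WT (SE 0.06, adjusted p = 0.00834). Sf3a2 rose by 0.18 (adjusted p = 0.0145) and Sf3b2 by 0.12 (adjusted p = 0.0381) in WT, where their KO changes were -0.01 and -0.06. Snrpb2, the U2B″ protein of the U2 snRNP, fell by 0.15 in KO (SE 0.05, adjusted p = 0.0244). Sf3b1, the HEAT-repeat protein that clamps the branch helix, had changes of -0.02 in KO and 0.03 in WT, neither called. The Sf3b2 call was lost without any 1 of 7 arrays and that of Snrpb2 without any 1 of 3 (KO sham 12, KO CCI 23 or KO CCI 40, adjusted p up to 0.0725).

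The U1 snRNP pairs with the 5′ splice site. Snrnp70, its U1-70K protein, rose by 0.21 in WT (SE 0.05, adjusted p = 0.00456) and had a KO change of 0.13 (SE 0.05, adjusted p = 0.107). Prpf40b, a homologue of the yeast U1 protein Prp40, was lower after injury in both genotypes. Its lowest, median and highest values were 7.39, 7.48 and 7.53 in KO CCI, against 7.54, 7.63 and 7.69 in KO sham. In WT they were 7.30, 7.41 and 7.49 after CCI, against 7.46, 7.51 and 7.55 after sham. The KO groups did not overlap, as was so in this direction for 2.87% of all transcript clusters and 6.89% of the brighter named genes. The WT groups overlapped. Prpf40b fell by 0.15 in KO (SE 0.04, limma adjusted p = 0.00431) and by 0.11 in WT (SE 0.04, adjusted p = 0.0382). Its WT call was lost when any 1 of 9 arrays was left out. Prpf39 and Snrpc were called in neither genotype.

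The tri-snRNP delivers the catalytic centre. Prpf38b, a paralogue of the B-complex protein Prpf38a, was the only member of this set called in both genotypes. It rose by 0.18 in KO (SE 0.05, adjusted p = 0.00937) and by 0.16 in WT (SE 0.05, adjusted p = 0.0171). Without the 10 arrays named above its WT change was 0.09 (adjusted p = 0.451) and its KO change 0.16 (adjusted p = 0.135). Prpf31, which holds the U4/U6 particle together, rose by 0.19 in WT (SE 0.05, adjusted p = 0.00659), and its KO change was 0.13 (adjusted p = 0.0675). Prpf6, the bridge between U5 and U4/U6, rose by 0.13 in WT (adjusted p = 0.0221), and did not pass without WT sham 1 (adjusted p = 0.0561). Prpf8, the protein at the heart of the spliceosome, had changes of -0.07 in KO and 0.04 in WT. Snrnp200, the helicase that unwinds U4 from U6, had changes of -0.01 in KO and 0.07 in WT. Neither of these large subunits was called in any comparison. Prpf3, Prpf4, Prpf4b, Prpf18, Prpf38a, Snrnp27 and Snrnp40 were not called either, nor was Prpf19, the ubiquitin ligase of the activated spliceosome, at 0.11 in KO and 0.22 in WT (adjusted p = 0.0612). The minor-spliceosome proteins Snrnp25, Snrnp35 and Snrnp48 were called in no comparison.

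The Lsm2-8 ring binds the 3′ end of U6 snRNA. In WT 4 of its 7 genes were called higher and 0 lower, against 21.1% higher and 13.8% lower of the brighter named genes. In KO 2 were called higher and 1 lower, against 17.7% and 15.5%. Lsm4 had a lowest, median and highest value of 8.56, 8.73 and 8.77 in WT CCI, against 8.40, 8.43 and 8.51 in WT sham. These WT groups did not overlap, as was so in this direction for 4.44% of all transcript clusters and 12.0% of the brighter named genes. In KO the Lsm4 values spanned 8.46 to 8.71 after CCI, against 8.41 to 8.59 after sham, which overlapped. Lsm4 rose by 0.25 in WT (SE 0.05, adjusted p = 0.000138), and its KO change was 0.08 (SE 0.05, adjusted p = 0.245). Lsm6 rose in both genotypes, by 0.24 in KO (SE 0.05, adjusted p = 0.000931) and by 0.18 in WT (SE 0.05, adjusted p = 0.00923). Lsm2 rose by 0.19 in KO (adjusted p = 0.00863) and by 0.15 in WT (adjusted p = 0.0469). Neither Lsm2 change passed with median centring (adjusted p = 0.0769 in KO and 0.101 in WT) or quantile normalization (adjusted p = 0.0717 in KO and 0.09 in WT). Lsm5 was called in WT alone, at 0.22 (adjusted p = 0.0316). Lsm8, the subunit that makes the ring nuclear, fell by 0.19 in KO (SE 0.06, adjusted p = 0.032), and its WT change was -0.15. The calls of Lsm2 in WT, Lsm5 in WT and Lsm8 in KO were lost without any 1 of 21, 6 and 8 arrays.

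Outside that ring, Lsm11 moved most of all members. This U7 snRNP protein serves the processing of replication-dependent histone mRNA. Its lowest, median and highest values were 6.45, 6.70 and 6.92 in KO CCI, against 6.90, 6.97 and 7.14 in KO sham. In WT they were 6.56, 6.62 and 6.85 after CCI, against 6.76, 6.96 and 7.09 after sham. Each pair of groups overlapped at the edge. Lsm11 fell by 0.33 in KO (SE 0.07, limma adjusted p = 0.000622) and by 0.31 in WT (SE 0.07, adjusted p = 0.00122), opposite to the 9 dividing-cell markers. Its U7 partner Lsm10 was not called, at 0.10 in both genotypes. Lsm12 and the P-body protein Lsm14a rose in WT by 0.17 each (adjusted p = 0.0139 and 0.00991). Lsm1 and Lsm14b were called in neither genotype.

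The 2 injury comparisons contrast different arrays, but 1 model on all 28 arrays gave both. They share its estimate of the spread and its sex term, so their calls are not independent. Of the 20 members called in WT, 7 were also called in KO and all 7 in the same direction, which is 35% of the WT calls and 70.0% of the KO calls. These were Lsm2, Lsm6, Prpf38b, U2af1 and U2af2, which rose, and Lsm11 and Prpf40b, which fell. Neither this overlap nor the correlation below is set against all transcript clusters, so neither is shown to be particular to the members. With the 10 arrays of strong neighbouring-tissue signal left out, 3 of the 10 KO calls remained (Lsm2, Lsm6 and Lsm11) and 10 of the 20 WT calls (Sf3b3, Sf3b6, Snrnp70, Snrpg, Prpf31, U2af1, U2af2, Lsm4, Lsm11 and Lsm12). The changes behind the lost calls were mostly of like size with these fewer arrays, at 0.878 to 1.11 times the value on all arrays for the 7 in KO and 0.555 to 1.21 times for the 10 in WT, where Prpf38b alone shrank by more than 1.5 times. Across the 52 members the KO and WT injury changes had a Pearson r of 0.819 and a Spearman rho of 0.768, as a description over genes that share these 28 arrays. All 10 KO calls and all 20 WT calls had the same sign in both runs of title numbers, 1 to 24 and 25 to 42, which each hold all 4 groups. The calls were made on both runs together, so this agreement is not independent support. Tested alone with fewer arrays, the first run kept 1 KO call and 3 WT calls, and the second 1 and 1. The sizes differed by more than 1.5 times between the runs for 7 of the 10 KO calls and 9 of the 20 WT calls. The widest gaps were those of Snrpe in KO (0.29 in the first run, 0.04 in the second), Sf3b2 in WT (0.19 and 0.04) and Lsm6 in KO (0.35 and 0.10). A total of 13 members were called in WT only, all higher, and 11 of these had a KO change above 0, while 3 were called in KO only. The test of the difference between the injury changes called 0 members and 0.0% of all transcript clusters, with 3 members and 6.21% of all transcript clusters at an unadjusted p under 0.05. Those 3 members were Sf3b2, Lsm4 and Sf3a2. The KO minus WT difference of the injury change was -0.19 for Sf3b2 (95% interval -0.31 to -0.07), -0.17 for Lsm4 (-0.30 to -0.04) and -0.19 for Sf3a2 (-0.33 to -0.04), each with an adjusted p of 0.779. For 39 of the 52 members the KO change was the smaller or more negative one, as it was for 44.0% of all transcript clusters and 58.4% of the brighter named genes. That count was 44 with arrays centred on their medians and 34 with quantile normalization. Oligodendrocyte markers moved unequally too, with 1 of 7 called higher after injury in KO and 5 of 7 in WT. Their mean spanned 9.81 to 11.001 in KO CCI, 10.12 to 10.83 in KO sham, 10.76 to 11.004 in WT CCI and 9.91 to 10.40 in WT sham. Their part in the members' values was not tested.

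The genotype comparison asked whether loss of Rbm5 altered the core proteins without injury. After sham, 2 members were higher in KO than in WT and 0 were lower. Of all transcript clusters 0.508% were called higher and 0.776% lower, and of the brighter named genes 1.16% and 2.09%. The 2 members belong to the recognition of splice sites: Sf3b3 of SF3B and Snrnp70 of U1. After CCI 0 members were called by limma, against 0.226% higher and 0.428% lower of all transcript clusters. Of the brighter named genes 0.441% were higher and 1.05% lower. An unadjusted p under 0.05 was found for 6 members, 9.8% of all transcript clusters and 14.5% of the brighter named genes. Over both procedures together 3 members were higher in KO and 0 lower. The shares were 1.36% higher and 1.8% lower of all transcript clusters, and 3.01% and 4.59% of the brighter named genes. The third member was Prpf40b.

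Sf3b3 carried the largest genotype difference. Its lowest, median and highest log2 signals were 10.04, 10.26 and 10.37 in KO CCI, against 9.61, 10.05 and 10.10 in WT CCI. They were 10.004, 10.07 and 10.11 in KO sham, against 9.60, 9.69 and 9.77 in WT sham. After sham every KO array lay above every WT array, as was so for 0.546% of all transcript clusters and 1.5% of the brighter named genes. After CCI the genotypes overlapped. Sf3b3 was 1.29-fold higher in KO after sham (log2 0.37, SE 0.06, limma adjusted p = 0.000649) and 1.23-fold higher over both procedures (log2 0.30, SE 0.04, adjusted p = 3.54e-05). After CCI the difference was 0.24 (SE 0.06, 95% interval 0.11 to 0.36, adjusted p = 0.0597). With single arrays left out it ranged from 0.18 to 0.26, with a limma adjusted p from 0.0426 to 0.14. Of these runs only that without KO CCI 23 passed the threshold (adjusted p = 0.0426). The difference also passed with quantile normalization (0.25, adjusted p = 0.0252). Without the 10 arrays of high striatum or choroid plexus marker signal the difference after CCI was 0.13 (adjusted p = 0.605), and that after sham 0.40 (adjusted p = 0.000331). Within title numbers 1 to 24 the difference over both procedures was 0.29 (adjusted p = 0.00639), and within 25 to 42 it was 0.32 (adjusted p = 0.309). Without the same 10 arrays it was 0.26 (adjusted p = 0.00128). The WT sham arrays, the lowest group for Sf3b3, enter both the genotype comparison after sham and the WT injury comparison.

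Sf3b3 lies at chr8:110810491-110846806 in GRCm38.p6. Its promoter window is shown because this gene had the largest genotype difference of the 52. The window lies at chr8:110846754-110847053 on the minus strand and is read in the direction of the gene. Capitals mark 3 matches. The first, 229 bases before the start, is the ETS core CCGGAAG on the opposite strand, and the second, 152 bases before it, is a CCAAT box on that strand. The third is a match to the letters TATAAA on the gene's own strand, 96 bases before the start.
Sf3b3: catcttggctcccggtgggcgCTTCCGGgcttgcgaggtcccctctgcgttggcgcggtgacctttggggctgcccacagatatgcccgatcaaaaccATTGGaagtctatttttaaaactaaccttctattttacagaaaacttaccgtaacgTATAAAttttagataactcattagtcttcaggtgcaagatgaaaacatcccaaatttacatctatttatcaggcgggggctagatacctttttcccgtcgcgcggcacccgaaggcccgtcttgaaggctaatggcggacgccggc
Snrnp70 is shown as the other member called after sham. Its window lies at chr7:45395693-45395992, also on the minus strand, and capitals mark 4 copies of the NRF1 core CGCATGCG, a palindrome. They begin 239, 124 and 60 bases before the start and 2 bases after it.
Snrnp70: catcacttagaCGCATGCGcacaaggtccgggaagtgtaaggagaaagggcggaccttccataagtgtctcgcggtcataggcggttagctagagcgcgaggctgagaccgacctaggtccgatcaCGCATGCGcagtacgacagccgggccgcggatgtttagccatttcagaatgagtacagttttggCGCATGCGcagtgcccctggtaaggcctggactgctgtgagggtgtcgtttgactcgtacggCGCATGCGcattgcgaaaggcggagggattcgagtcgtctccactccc
A GGGCGG match between the first and second copies, 203 bases before the start, is left in lower case.

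Snrnp70 signal had a lowest, median and highest value of 11.43, 11.55 and 11.65 in KO CCI, against 11.33, 11.43 and 11.47 in WT CCI. It was 11.26, 11.43 and 11.62 in KO sham, against 11.09, 11.16 and 11.35 in WT sham. The genotypes overlapped after both procedures. Snrnp70 was higher in KO by 0.21 after sham (SE 0.05, adjusted p = 0.0408) and by 0.17 over both procedures (SE 0.04, adjusted p = 0.00688), and the difference after CCI was 0.13 (adjusted p = 0.376). The call after sham was lost without any 1 of 10 arrays, and the call after sham also with median centring (0.23, adjusted p = 0.0502). Without the 10 arrays of high striatum or choroid plexus signal neither passed, although the differences were larger, at 0.26 after sham (adjusted p = 0.0699) and 0.21 over both procedures (adjusted p = 0.0701). Prpf40b was higher in KO by 0.09 over both procedures (SE 0.03, adjusted p = 0.039), which did not pass when any 1 of 18 arrays was left out. Its injury change ran the other way in both genotypes.

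**Figure D3:**
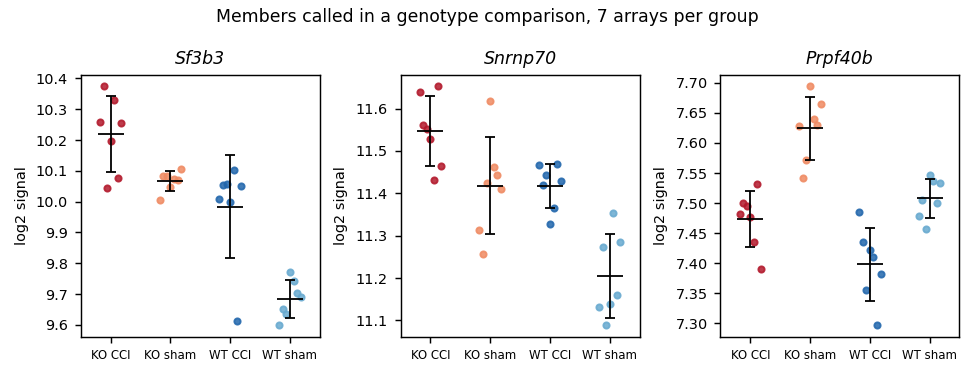
Log2 signal of Sf3b3, Snrnp70 and Prpf40b on each array, for KO CCI, KO sham, WT CCI and WT sham, with black bars for the mean and SD of 7 arrays. The KO sham arrays of Sf3b3 all lie above the WT sham arrays, which span 9.60 to 9.77.

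The remaining 49 members gave no genotype call. The Sm ring, the Lsm2-8 ring, U2AF, the tri-snRNP and the minor-spliceosome set had 0 called members in each of the 3 genotype comparisons. After sham 41 of the 52 members had a KO minus WT difference above 0, against 45.0% of all transcript clusters and 56.0% of the brighter named genes. They included all 11 of the U2 snRNP (10 with quantile normalization), all 5 of the Sm ring (4 with quantile normalization) and all 4 of the U1 snRNP, and 31 of the 39 other spliceosome proteins did the same. The U2 snRNP median was 0.12. After CCI 25 of the 52 members had a difference above 0, against 54.1% of all transcript clusters and 45.9% of the brighter named genes. The U2 snRNP had 3 of 11 above 0 and a median of -0.01. Oligodendrocyte markers shifted between the procedures in the same sense, with 7 of 7 above 0 after sham (median 0.35) and 0 of 7 after CCI (median -0.38), and their part in these counts was not tested. Beside Sf3b3, the smallest p-values after CCI belonged to Prpf8, at -0.14 (SE 0.05, adjusted p = 0.241), and Prpf38a, at 0.12 (SE 0.04, adjusted p = 0.285), and neither passed.

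**Figure D4:**
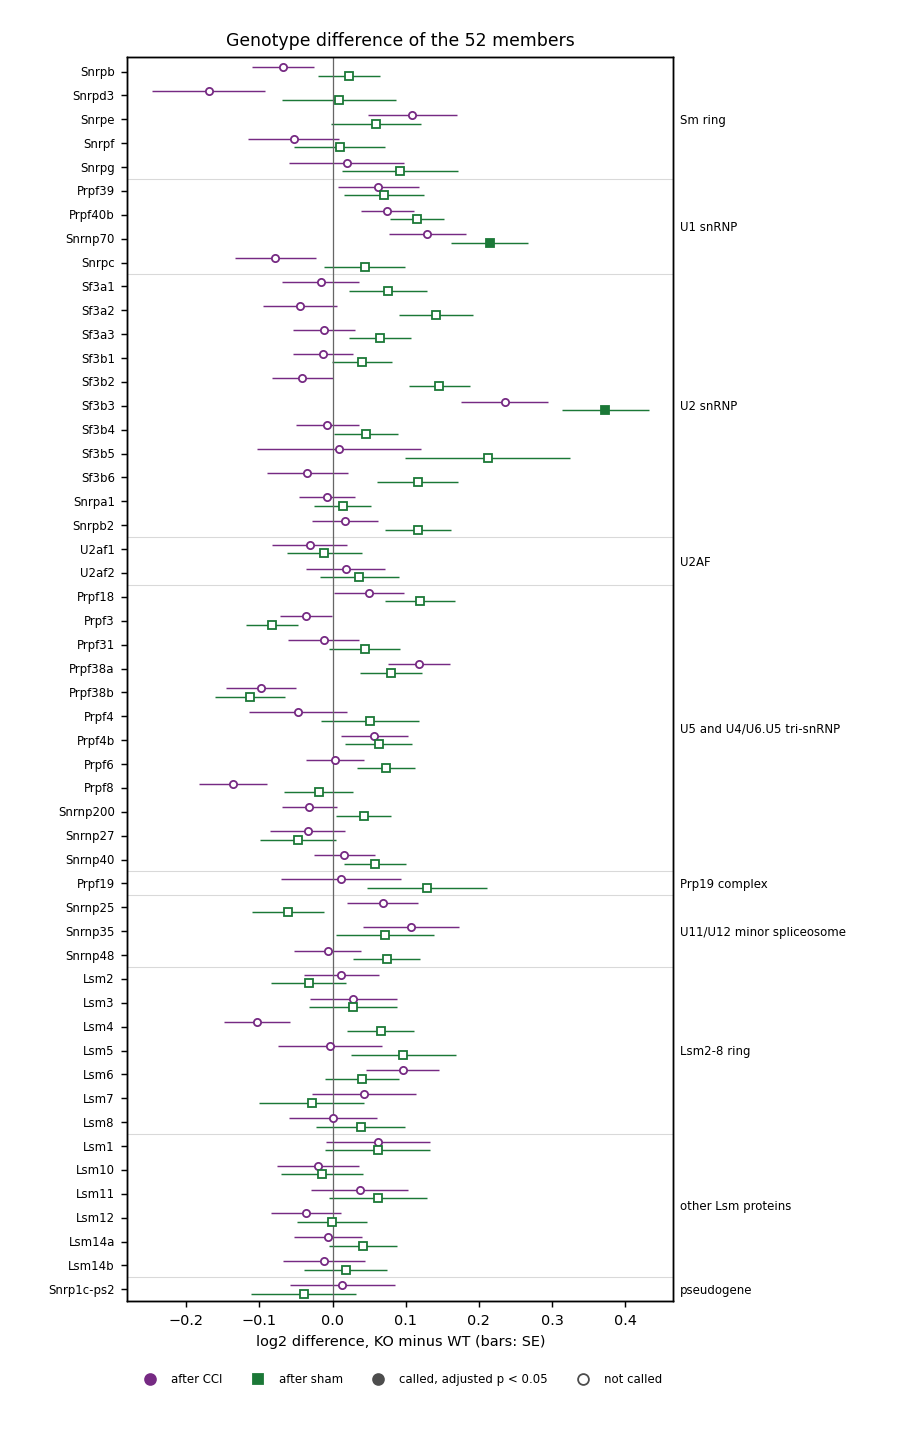
Log2 genotype difference (KO minus WT) of each of the 52 members by role, with the difference after CCI as purple circles above that after sham as green squares, bars showing the SE, and filled symbols marking an adjusted p under 0.05. The 2 filled squares are Sf3b3 and Snrnp70, and no circle is filled.

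Other proteins of the spliceosome, taken from a list of 46 genes of which 39 were measured, included genes with a genotype difference. Of the 39, 3 were higher in KO after sham, 2 after CCI and 5 over both procedures, and 0 were lower in any of these comparisons. The shares called higher were 7.69%, 5.13% and 12.8%, against 1.16%, 0.441% and 3.01% of the brighter named genes. Dhx15, the helicase that RBM5's G-patch stimulates, spanned 11.24 to 11.47 in KO CCI with a median of 11.35, against 10.97 to 11.16 with a median of 11.09 in WT CCI. It spanned 11.15 to 11.42 in KO sham with a median of 11.25, against 10.91 to 11.01 with a median of 10.94 in WT sham. The genotypes did not overlap after either procedure, with KO above WT. The same held for 0.186% of all transcript clusters after CCI and 0.546% after sham, and for 0.363% and 1.5% of the brighter named genes. Dhx15 was higher in KO by 0.28 after CCI (SE 0.04, limma adjusted p = 9.15e-05), by 0.31 after sham (SE 0.04, adjusted p = 2.44e-05) and by 0.30 over both (SE 0.03, adjusted p = 3.96e-08). Luc7l, a homologue of a yeast U1 protein, was higher by 0.20 after CCI (adjusted p = 0.0255) and 0.19 after sham (adjusted p = 0.0277). Bcas2, of the Prp19 complex, was higher by 0.19 after sham (adjusted p = 0.0164). For these genes and those of the next paragraph, no alternative runs or runs without single arrays are given.

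After injury in KO, 0 of the same 39 genes were called higher and 6 lower. That is 0.0% and 15.4%, against 17.7% and 15.5% of the brighter named genes. In WT 3 were higher and 4 lower, or 7.69% and 10.3%, against 21.1% and 13.8%. The median injury change of the 39 genes was -0.02 in KO and 0.04 in WT. Cdc40, a second-step factor, fell by 0.30 in KO (SE 0.07, adjusted p = 0.00347) and by 0.39 in WT (SE 0.07, adjusted p = 0.000207). Slu7, another second-step factor, fell by 0.25 in KO and 0.21 in WT, and Luc7l3 fell by 0.25 in KO and 0.24 in WT, all called. Cwc15, of the Prp19 complex, rose by 0.36 in WT (SE 0.06, adjusted p = 6.51e-05). Of 13 measured genes for snRNP assembly and import, which load the Sm ring onto snRNA, 1 was called in any of these comparisons. Gemin5, the snRNA-binding subunit of the SMN complex, rose by 0.13 in WT (adjusted p = 0.0343). That is 7.69% called higher in WT, against 21.1% of the brighter named genes.

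Array by array, the mean over the 51 member genes spanned 8.60 to 8.71 in KO CCI, 8.58 to 8.68 in KO sham, 8.60 to 8.68 in WT CCI and 8.54 to 8.61 in WT sham. The SD within groups had a median of 0.09 over the members, with 0.05 for Prpf3 and 0.22 for Sf3b5 as the ends of the range.

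**Figure D5:**
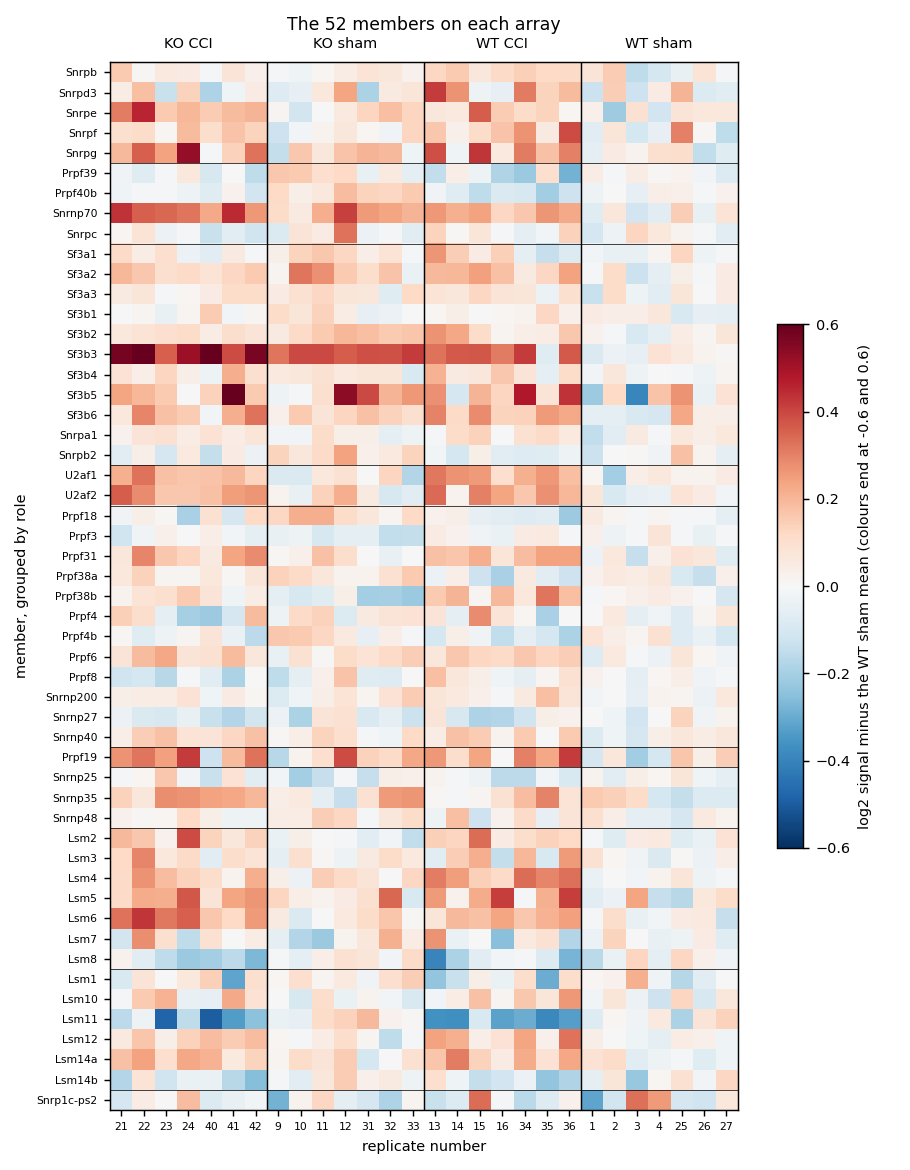
Log2 signal of each of the 52 members (rows, grouped by role) on each of the 28 arrays (columns, by group and replicate number), less the member's WT sham mean. Red is higher and blue lower, and colours end at -0.6 and 0.6. Sf3b3 is red across the KO arrays and also on the WT CCI arrays other than 35.

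The members' promoters had letters in common. RefSeq windows of 300 bases were available for 42 of the 52 members and 27025 genes in all, and 9 motifs were searched on both strands. The ETS core CCGGAAG occurred in 17 of the 42 (40.5%), against 9.93% of all genes with a window. These were Lsm5, Prpf19, Prpf3, Prpf4b, Prpf6, Sf3a1, Sf3a2, Sf3a3, Sf3b2, Sf3b3, Sf3b6, Snrnp200, Snrnp27, Snrpb2, Snrpc, Snrpe and Snrpg. Some of them were called in a comparison and others in none, and a link of the motif to the calls was not tested. The GC box GGGCGG occurred in 69.0% of members, against 38.2% of all genes, and the E2F core TTCCCGC in 11.9%, against 5.29%. The YY1 core AAGATGGC occurred in 7.14% of members, against 3.19%, and the NRF1 core CGCATGCG in 4.76%, which were Lsm2 and Snrnp70, against 2.07%. CCAAT occurred in 42.9% of members, against 41.1%, and CTTTCC in 38.1%, against 29.3%. TGACGTCA occurred in 4.76%, against 2.03%. TATAAA was the motif less common in members, at 4.76% against 15.7%, and Sf3b3 and Snrnp48 were the members with it. These matches describe letters in a window and are not evidence of binding.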

How the data were processed

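Log2 signal per transcript cluster was deposited by the authors as one table of 28 arrays, a scale read from the values, with array medians of 5.79 to 5.90. Per the labels' protocols, 100 ng of Trizol-extracted RNA was labelled. The software and normalization are not given in the sources used here, and none was added. Of 72688 transcript clusters, 6732 controls were left out. Gene names came from the platform annotation, updated and placed with RefSeq GRCm38.p6, and a transcript cluster on another chromosome than its gene was left unnamed.

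Comparisons used limma 3.58.1 under R 4.3.3, with lmFit and eBayes on all 28 arrays (4 groups, sex additive), adjusted by Benjamini-Hochberg over 65956 transcript clusters and called at an adjusted p under 0.05. The model was tested on simulated data. The p-values measure the spread between these animals. Log2 changes are CCI minus sham or KO minus WT, and array values carry no depth, so the number of arrays limits the precision.

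Members, roles, motifs and gene lists were chosen with earlier results of these data known. Values by group are given for members called in a genotype comparison (or the 3 of smallest p), up to 10 called members per direction in each injury comparison, Snrpb and the large subunits Prpf8, Snrnp200 and Sf3b1. The lists of other proteins gave up to 3 called genes per direction, without the alternatives that follow. Alternatives were no sex term, the run of title numbers (1 to 24, 25 to 42) as a covariate or alone, median centring, quantile normalization, brighter transcript clusters only, a variance trend, array weights, an adjusted p under 0.01, the second transcript cluster of Lsm7, only the arrays compared, leaving out each array, and leaving out 10 arrays whose striatum or choroid plexus marker mean lay over 3 median absolute deviations above the sham median. The labels do not call the title runs batches. Using the chromosome 17 transcript cluster for Snrpg was chosen after seeing the data. Summaries and plots used pandas 2.3.3 and matplotlib 3.10.9 under Python 3.11.15.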

Additional observations from a re-analysis of the deposited data

Results flagged for a closer look

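In 108 group values of 27 named members, 10 had a highest or lowest array far from the other 6, where chance gives about 1 in 20. WT CCI 15 was the high array for Lsm11 (6.854, next 6.649), Lsm2 (6.165, next 5.973) and Snrpe (8.829, next 8.619). WT CCI 35 was low for Sf3b3 (9.613, next 9.999) and high for Sf3b1 (13.78, next 13.69), and KO CCI 40 was high for Sf3b1 (13.81, next 13.67). WT CCI 35 and KO CCI 40 are among the 10 arrays whose striatum or choroid plexus marker mean was high. So are KO CCI 22 and WT sham 25, named below, while WT CCI 15, WT sham 2 and WT sham 27 are not. U2af1 was high on KO CCI 22 (9.91, next 9.794) and low on WT sham 2 (9.377, next 9.593). Sf3b6 was high on WT sham 25 (7.773, next 7.582), and Prpf38b was low on WT sham 27 (9.382, next 9.472).

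The transcript cluster listed with Snrpg under a chromosome 17 identifier was not used as the member, and it was called in both injury comparisons. It rose by 0.3298 in KO (SE 0.087, limma adjusted p = 0.00739) and by 0.5556 in WT (SE 0.086, adjusted p = 2.01e-05).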

How the results depend on the processing

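No called change or difference of a named member changed direction under any alternative run. Over all 52 members, 21 lay below 0 for injury in KO, and 26 did with median centring. Only some uncalled values were followed one by one across the alternatives, and among those the values of 4 members crossed 0. Quantile normalization gave -0.0089 for Prpf8 and -0.062 for Sf3b1 after injury in WT and 0.043 for Snrnp200 in KO, and median centring gave -0.016 for Snrpb in KO. Title numbers 1 to 24 gave -0.036 for Sf3b1 in WT and 0.051 for Snrnp200 in KO. Title numbers 25 to 42 gave 0.079 for Sf3b1 and -0.033 for Snrpb in KO, and -0.0018 for the genotype difference of Snrnp200 over both procedures. Without single arrays Snrnp200 spanned -0.025 to 0.011 for injury in KO and -0.0042 to 0.014 for genotype. The sex term, the run covariate, the variance trend and the second Lsm7 transcript cluster kept every count within 1.5 times. The causes of the shifts below were not tested, beyond the fewer arrays of some fits. Within title numbers 1 to 24 the members called higher and lower numbered 1 and 1 for injury in KO, 3 and 0 for injury in WT, 1 higher for genotype after sham and 1 higher over both procedures. Within 25 to 42 they numbered 0 and 1 for injury in KO and 1 and 0 for injury in WT, with 0 higher in both genotype comparisons. Median centring gave 2 higher and 7 lower for injury in KO, in place of 6 and 4, and 1 higher for genotype after sham. Quantile normalization gave 10 higher and 3 lower, and brighter transcript clusters 10 higher and 5 lower, for injury in KO. Each also gave 1 higher for genotype after CCI (Sf3b3), and the brighter set gave 1 lower over both procedures. Without the 10 arrays of high striatum or choroid plexus signal, injury gave 2 higher and 1 lower in KO and 1 lower in WT, and genotype 1 higher after sham and 1 over both procedures. Only the arrays compared gave 1 lower for injury in WT and 1 higher for genotype after sham. Of the 10 KO and 20 WT injury calls of named members, centring kept 6 and 15. At an adjusted p under 0.01 injury gave 2 lower in KO, 9 higher and 1 lower in WT, and genotype after sham 1 higher.

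Leaving out each array in turn gave 5 to 8 higher and 2 to 5 lower for injury in KO, and 13 to 18 higher and 1 to 2 lower in WT. Genotype gave 1 to 2 higher and 0 to 0 lower after sham, 0 to 1 higher and 0 lower after CCI, and 2 to 3 higher and 0 to 1 lower over both procedures. The difference between the injury changes stayed at 0. No paired analysis was possible because the groups share no replicate number. Changes near 0.1 on the log2 scale lie close to the spread within groups, so members without a call are not shown to be unaltered.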
